A study of Mus musculus with 6 samples.

Results

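Histone and DNA modifying enzymes were followed in the transcriptome of lung group 2 innate lymphoid cells (ILC2s), the tissue-resident lymphocytes that make type 2 cytokines, with and without the mechanically gated cation channel Piezo1. The genes were chosen by name: every gene symbol of the deposited table that begins as a numbered lysine demethylase (Kdm), lysine methyltransferase (Kmt) or lysine acetyltransferase (Kat), and the histone deacetylases (Hdac), sirtuins (Sirt), Ezh1 and Ezh2, Tet1 to Tet3 and the Dnmt1 and Dnmt3 genes. These patterns match 60 of 18057 genes. The choice leaves out 4 of the demethylase genes, so 56 members remain. Of these, 53 had enough counts to be tested and 3 did not.

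The control group holds 3 libraries whose genotype label gives the Il7r-Cre driver alone, while their titles call them WT. The Piezo1_KO group holds 3 libraries with the same driver and a floxed allele of Piezo1. Mice of both groups had received 3 i.n. injections of IL-33 (1 µg each), an alarmin that activates ILC2s, and the sorted cells were then cultured in IL-7 and IL-2, both at 10 ng/mL, over 24 h. The driver follows the IL-7 receptor alpha gene, which lymphoid progenitors and other lymphocytes also express, so deletion under it is not restricted to ILC2s. The labels name no strain, age or sex, and do not say whether cells of several animals were pooled. They do not tie a replicate to an animal either, and the p-values therefore speak only of library-to-library spread, part of which may be technical.

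Chromatin marks are written, removed and read by separate protein families. Methyltransferases move a methyl group from S-adenosylmethionine to histone lysines or to cytosine in DNA, and acetyltransferases use acetyl-CoA. The marks are taken off by flavin-dependent demethylases, by JmjC demethylases that need iron, oxygen and 2-oxoglutarate, by zinc-dependent HDACs and by sirtuins, which consume NAD. The TET dioxygenases oxidise methylcytosine with the same cofactors as the JmjC enzymes. Because of these cofactors, the families tie chromatin to oxygen and intermediary metabolism, and in ILC2s and T helper cells they are known for setting which cytokine loci are open.

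Depth ranged from 13059046 estimated counts (control replicate 3) to 33459904 (control replicate 2). Piezo1, the targeted gene, was at 247, 278 and 160 CPM (counts scaled to library size, with TMM factors) in control and at 150, 109 and 121 CPM in Piezo1_KO, with the replicates in numerical order here and below. Every Piezo1_KO library was below every control library. The log2 fold change was −0.85 ± 0.21 (SE, edgeR quasi-likelihood test, adjusted p = 0.112), which did not pass the threshold of 0.05, and 4 of 13 other fits passed it (adjusted p from 0.00198 to 0.464 over the 13). The count is of the whole gene, whether or not an exon lies between the loxP sites. All 14 ILC2 markers were detected, with a summed level of 12087 to 12986 CPM in control and 13879 to 14802 CPM in Piezo1_KO.

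Of the 14 ILC2 markers 8 were positive, with a median log2 fold change of 0.23. At an unadjusted p under 0.05 there were 7 higher and 5 lower (edgeR), where 13.2% of all genes tested had such a p. At the adjusted threshold, passed by 1.51% of all genes tested, 0 of these markers rose. Il7r, the locus of the driver, and Icos were called lower in Piezo1_KO (log2 fold changes −1.03 ± 0.12 and −0.61 ± 0.09, adjusted p = 0.00722 and 0.0168 in edgeR, with 10 and 8 of 13 other fits passing). Markers of other cells were scarce, and for 5 of 7 such lists the summed levels of the groups did not overlap. Among single genes, the groups did not overlap for 20.5% of all tested. Of the 15 tested genes on these lists 11, or 73.3%, had an unadjusted p under 0.05 (edgeR). The summed level of 4 of 8 T cell markers found in the table was 40.6 to 47.0 CPM in control and 58.1 to 66.0 CPM in Piezo1_KO, with Cd4, Cd8a, Cd8b1 and Cd5 not among the genes analysed here. For B cells, 3 of 6 markers summed to 34.4 to 40.2 CPM and 80.1 to 103.6 CPM, and Ms4a1 and Pax5 were not among the genes analysed. For granulocytes and mast cells, 3 of 8 markers summed to 7.61 to 11.9 CPM and 3.55 to 4.73 CPM. NK cell and ILC1 markers (3 of 6) summed to 63.8 to 87.3 CPM and 40.1 to 59.8 CPM, while macrophage markers (5 of 6) summed to 4.42 to 11.5 CPM and 3.97 to 6.94 CPM, ILC3 markers (2 of 4) to 0.974 to 2.06 CPM and 0.449 to 0.887 CPM, and epithelial, endothelial and fibroblast markers (2 of 6) to 10.2 to 15.3 CPM and 13.9 to 18.5 CPM. The T cell markers did not share a direction: of 3 tested, Lck was positive and the other two negative, down to −1.24. Among the markers of other cells Lck and Ighm rose and Tbx21, with 0 counts in every Piezo1_KO library, and Cma1 fell (edgeR), and only Lck passed in all 13 other fits. The part of these cells in the values of the enzymes was not tested. In bulk RNA, fewer cells of a type and less RNA per cell cannot be told apart.

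The enzymes differed far more from each other than between the genotypes. Levels are compared between genes as CPM per kb of exon, averaged over the 6 libraries. Hdac1, a catalytic subunit of the SIN3, NuRD and CoREST corepressors, stood highest at 97.3 CPM per kb, above 96.0% of the genes tested. Dnmt1, the maintenance methyltransferase that copies DNA methylation after replication, followed at 69.5 CPM per kb. Hdac2 and Hdac3, the partner of Hdac1 and the enzyme of the NCoR and SMRT corepressors, were at 32.3 and 27.3 CPM per kb. This order depended on the length used. By the longest transcript in place of all exons, Sirt7 (59.8) and Hdac3 (54.5) lay above Hdac2 (44.4 CPM per kb). Kat7, which acetylates histones at replication origins, was at 26.04 CPM per kb. The median of the 53 tested members was 5.87 CPM per kb, beside 4.98 CPM per kb over all genes tested.

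**Figure D1:**
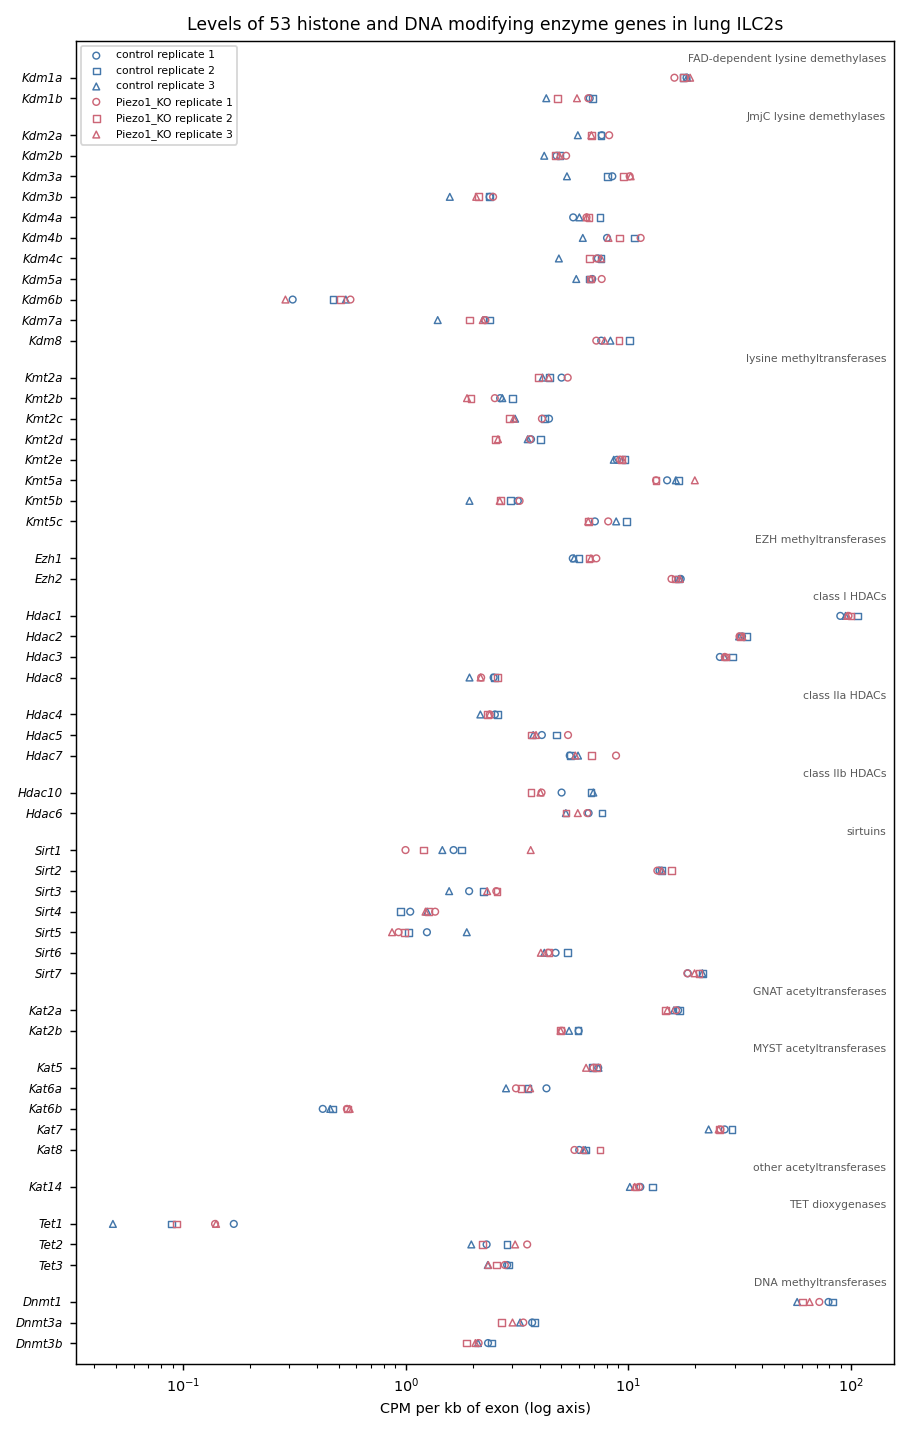
Level of each of the 53 tested enzyme genes in CPM per kb of exon (horizontal log axis), grouped by enzyme class, with 1 symbol per library (blue control, red Piezo1_KO, symbol shape by replicate). Hdac1 and Dnmt1 lie far to the right at means of 97.3 and 69.5 CPM per kb, and Tet1 far to the left at 0.113 CPM per kb, while the colours are mixed within most rows.

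In the zinc-dependent HDACs and the DNA methyltransferases 1 gene carried most of the transcript. Class I HDACs made up 86.4 ± 0.12% of the zinc-dependent HDAC level per kb in control and 87.1 ± 1.51% in Piezo1_KO (SD, n = 3), and Hdac1 alone 52.6 ± 0.99% and 53.4 ± 0.94%. Dnmt1 made up 92.5 ± 0.90% and 92.9 ± 0.12% of the DNA methyltransferase level. The de novo enzymes Dnmt3a and Dnmt3b were at 3.30 and 2.16 CPM per kb. Among the sirtuins, the nucleolar Sirt7 (20.1 CPM per kb) and the mainly cytoplasmic Sirt2 (14.2 CPM per kb) stood above the mitochondrial Sirt3, Sirt4 and Sirt5 (2.20, 1.18 and 1.16 CPM per kb) and Sirt1 (1.79 CPM per kb). The order of Sirt4 and Sirt5 depended on the length used. By the longest transcript in place of all exons, Sirt5 was at 3.94 and Sirt4 at 1.58 CPM per kb.

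Among the lysine methyltransferases, Kmt5a, which places a single methyl group on lysine 20 of histone H4, was the highest at 15.8 CPM per kb. The KMT2 genes, whose products methylate lysine 4 of histone H3, ran from Kmt2e at 9.18 through Kmt2a at 4.54, Kmt2c at 3.63 and Kmt2d at 3.33 to Kmt2b at 2.46 CPM per kb. By the longest transcript as length, Kmt2c (4.92) lay above Kmt2a (4.60 CPM per kb). Kmt2e belongs to this family by sequence, though its product is thought to read rather than write the mark. Ezh2, the main catalytic subunit of Polycomb repressive complex 2, was at 16.6 CPM per kb and its relative Ezh1 at 6.33 CPM per kb. Of the acetyltransferases, Kat7 was followed by Kat2a (GCN5) at 15.96 and Kat14 at 11.2 CPM per kb, and Kat6b was lowest at 0.501 CPM per kb. Kdm1a (LSD1), a flavin-dependent demethylase, was at 17.8 CPM per kb. The 11 tested JmjC genes lay between 0.448 (Kdm6b, a demethylase of lysine 27 of histone H3) and 8.93 CPM per kb (Kdm4b), with Kdm3a close behind at 8.62. By the longest transcript as length, Kdm3a and not Kdm4b was the highest of these 11 JmjC genes. The highest member was the same in the other 11 of 12 classes with more than 1 gene.

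For 3 members the counts were too few for the test. Kdm4d, a demethylase gene most active in testis, had 18 counts in the control libraries together and 18 in the Piezo1_KO libraries. Hdac11, the sole class IV deacetylase, had 4 and 20, and Kat2b-ps, a processed pseudogene of Kat2b on chromosome 5, had 4 and 13. No library held more than 11 counts of any of these, so no fold change is given. How reads were divided between Kat2b and this near copy is uncertain.

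No member passed the test between the genotypes over all genes. In edgeR, 0 of the 53 tested members passed an adjusted p of 0.05, where 1.51% of all genes tested did (214 of 14149). At an unadjusted p under 0.05 there were 5 members, 2 higher and 3 lower in Piezo1_KO, or 9.43% against 13.2% of all genes tested. The groups did not overlap for 8 members, or 15.1% against 20.5% of all genes. Of these, 4 were higher in Piezo1_KO, where 10.1% of all genes were, and 4 were lower, where 10.5% were. The share was thus near or below the background by each rule. In limma-voom 0 members passed (background 3.1%), and in DESeq2 and in edgeR on protein-coding genes only 1 did, Hdac10 (backgrounds 4.1% and 3.45%).

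The intervals bound how much could have been missed. The median log2 fold change of the 53 members was −0.01, with 26 positive and 27 negative, beside 0.02 for all genes tested. Its median size without sign was 0.09, beside 0.18 for all genes tested, though members were also more highly expressed (median 40.9 CPM against 20.1 CPM). The 95% interval of the fold change lay within 1.5-fold in both directions for 37 of 53 members and within 2-fold for 49. The exceptions to the 2-fold bound were Hdac10, Sirt1, Sirt5 and Tet1. The steadiest member was Hdac2, at 145, 151 and 141 CPM in control and 141, 143 and 145 CPM in Piezo1_KO, so the groups overlapped. Its interval ran from −13.7% to 11.9%. Hdac1 and Hdac3 had intervals of −12.9% to 17.3% and −13.3% to 14.5%.

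**Figure D2:**
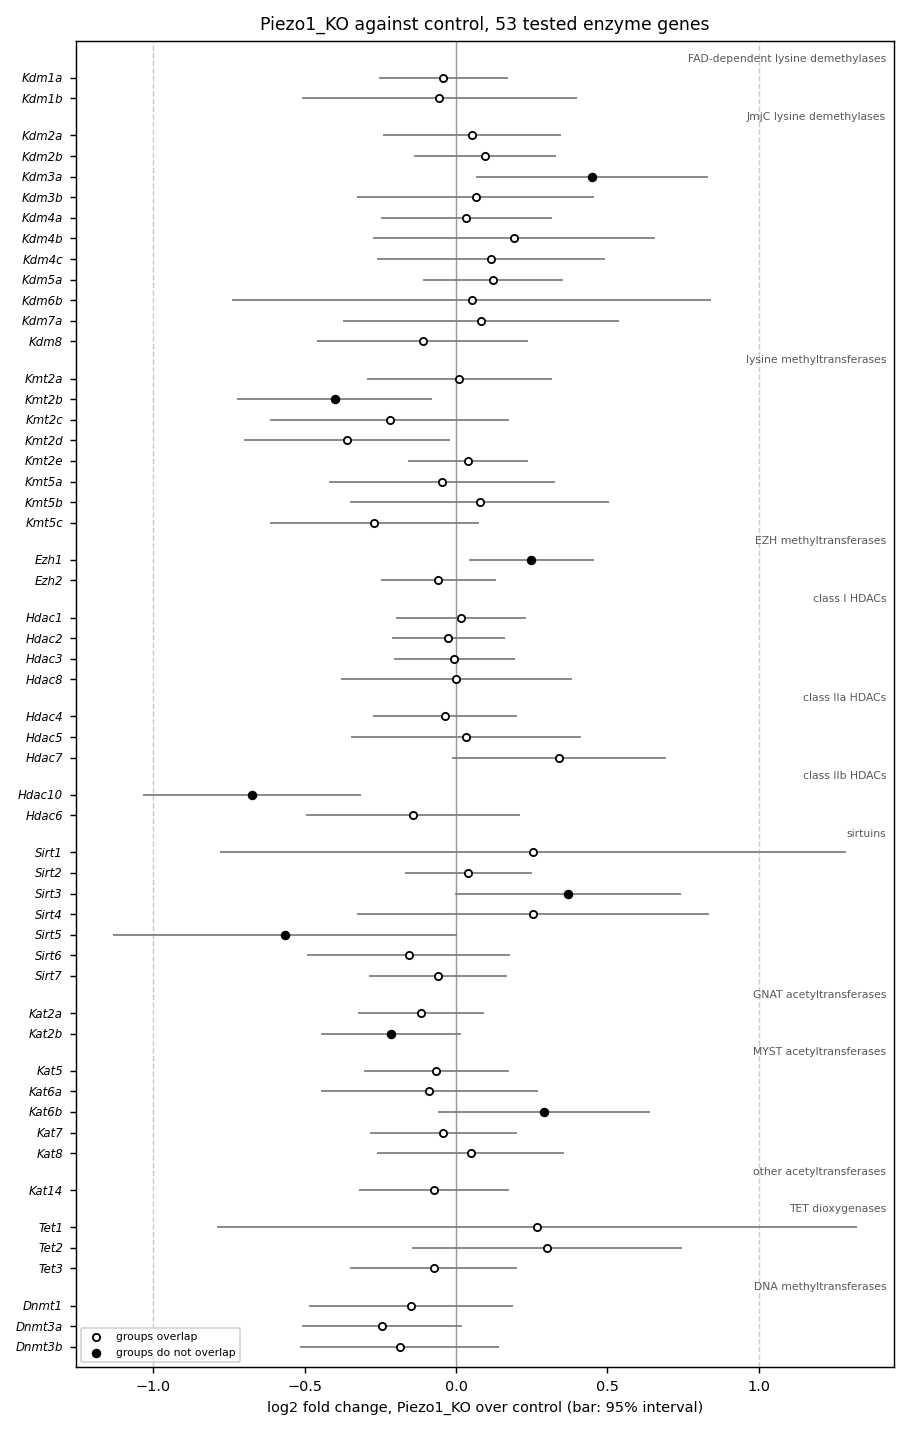
Log2 fold change of Piezo1_KO over control (horizontal axis) for the 53 tested enzyme genes by class, with 95% intervals from the edgeR fit as bars. Filled points mark the 8 genes whose groups did not overlap, dashed lines mark a 2-fold difference, and every point lies between them, from −0.67 for Hdac10 to 0.45 for Kdm3a.

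Hdac10 came closest to the threshold. It encodes a class IIb deacetylase best known for deacetylating polyamines, and lies on chromosome 15 (89123307 to 89128700 in mm10, minus strand). Its level was 16.9, 23.0 and 23.5 CPM in control and 13.8, 12.4 and 13.6 CPM in Piezo1_KO. All 3 Piezo1_KO libraries were lower than all control libraries, with control replicate 1 nearest to them. The log2 fold change was −0.67 ± 0.16 (SE), with a 95% interval of −1.03 to −0.31 and an adjusted p of 0.0966 in edgeR. Of 13 other fits, 2 passed, DESeq2 (0.0110) and edgeR on protein-coding genes only (0.0492), and the adjusted p over the 13 ranged up to 0.436. Leaving out each library in turn moved the log2 fold change between −0.81 and −0.60. The other class IIb enzyme, the tubulin deacetylase gene Hdac6, had a log2 fold change of −0.14 ± 0.15. As a share of the 2 genes per kb, Hdac10 was at 43.1%, 47.1% and 57.0% in control and at 38.4%, 41.1% and 40.5% in Piezo1_KO.

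The class IIa deacetylases, which shuttle out of the nucleus when calcium signals lead to their phosphorylation, did not pass. Hdac7 was at 36.9, 37.2 and 40.1 CPM in control and 59.5, 46.1 and 39.1 CPM in Piezo1_KO, so the groups overlapped and Piezo1_KO replicate 1 stood highest. Its log2 fold change was 0.34 ± 0.15 (adjusted p = 0.398, edgeR) and 0.15 without Piezo1_KO replicate 1. Hdac4 and Hdac5 had log2 fold changes of −0.04 ± 0.10 and 0.03 ± 0.17.

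Among the Polycomb enzymes, the values of Ezh1 and Ezh2 parted slightly. Ezh1 (chromosome 11, 101191115 to 101226463) was at 41.9, 44.7 and 42.5 CPM in control and 53.4, 49.5 and 50.5 CPM in Piezo1_KO. The 3 Piezo1_KO libraries lay above the control libraries in a narrow band. The log2 fold change was 0.25 ± 0.09 (95% interval 0.04 to 0.46), which did not pass (adjusted p = 0.277, edgeR, and 0.152 to 0.663 over 13 other fits). Ezh2 was at 115, 112 and 113 CPM in control and 104, 108 and 114 CPM in Piezo1_KO, a log2 fold change of −0.06 ± 0.08. The Ezh1 share of the 2 genes per kb was 24.7%, 26.3% and 25.2% in control and 31.5%, 29.1% and 28.5% in Piezo1_KO, again without overlap. This share was picked out after the values of both genes had been seen, and no test was made of it.

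The KMT2 genes, writers of H3 lysine 4 methylation at promoters and enhancers, gave 3 negative values of 5 (median −0.22), none of which passed. Kmt2b (chromosome 7, 30568858 to 30588726) was at 25.5, 29.0 and 26.1 CPM in control and 24.1, 18.8 and 18.1 CPM in Piezo1_KO. Kmt2d, a main writer of enhancer monomethylation, was at 72.8, 80.4 and 70.4 CPM in control and 72.0, 50.5 and 51.8 CPM in Piezo1_KO. Piezo1_KO replicate 1 sat at or near the control level for both genes, and only Kmt2b kept the groups apart. The log2 fold changes were −0.40 ± 0.14 for Kmt2b and −0.36 ± 0.15 for Kmt2d (adjusted p = 0.264 and 0.346, edgeR, with 0 of 13 other fits passing for either gene). Without Piezo1_KO replicate 1 both were −0.55.

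Kmt2c, the close relative of Kmt2d, was at 89.3, 85.2 and 62.9 CPM in control and 83.0, 59.3 and 62.1 CPM in Piezo1_KO, a log2 fold change of −0.22 ± 0.17 with overlap of the groups. It was −0.39 without Piezo1_KO replicate 1, −0.36 without control replicate 3 and −0.13 without either control replicate 1 or Piezo1_KO replicate 2. Kmt2a and Kmt2e had log2 fold changes of 0.01 ± 0.13 and 0.04 ± 0.09. The writers of H4 lysine 20 methylation had log2 fold changes of −0.05 ± 0.16 (Kmt5a), 0.08 ± 0.19 (Kmt5b) and −0.27 ± 0.15 (Kmt5c, adjusted p = 0.508 in edgeR).

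Of the 11 tested JmjC demethylases 10 had a positive log2 fold change, with a median of 0.08, but this balance rested on 1 library. Without control replicate 3, the shallowest, 5 of 11 were positive and the median was −0.01. Over the other alternatives, between 7 and 11 were positive. Of 10 tested JmjC proteins with other names, 4 were positive and 6 negative (median −0.08). Kdm3a, a demethylase of H3 lysine 9, had the largest positive value among all members. It was at 69.7, 66.4 and 43.6 CPM in control and 83.4, 78.3 and 84.2 CPM in Piezo1_KO. The groups did not overlap, and control replicate 3 lay well under the other control libraries. The log2 fold change was 0.45 ± 0.17 (95% interval 0.07 to 0.83, adjusted p = 0.290 in edgeR, 0.163 to 0.654 over 13 other fits), and 0.27 without control replicate 3.

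Kdm3a is known as a target of hypoxia-inducible factor (HIF), and the core of the HIF binding motif was therefore looked for in its promoter. On a list of other HIF targets, 6 of 14 tested genes were called higher in Piezo1_KO and 0 lower (edgeR). Of all genes tested, 1.51% were called in either direction. The median log2 fold change of the list was 0.62. This list was chosen with earlier results of these data known, and the part of HIF in the value of Kdm3a was not tested. Egln3, a prolyl hydroxylase that marks HIF for destruction, rose by 1.68 ± 0.12 on the log2 scale, Slc2a3, the glucose transporter GLUT3, by 1.35 ± 0.11, and the mitophagy receptor gene Bnip3 by 0.84 ± 0.13 (adjusted p = 0.000484, 0.00102 and 0.0225, edgeR, with 13, 13 and 9 of 13 other fits passing). Kdm4b and Kdm4c, which have also been described as hypoxia-responsive, had log2 fold changes of 0.19 ± 0.20 and 0.12 ± 0.16 that did not pass. Leaving out single libraries moved them between 0.02 and 0.40 and between −0.05 and 0.21, both being lowest without control replicate 3.

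The sequences below show the stretch of 29 bases around the motif core ACGTG or GCGTG (either strand, capitals) in the 250 bases before a RefSeq transcription start (GRCm38.p6), for Kdm3a, for Kdm4c and for Egln3 as the called HIF target with the smallest p.
Kdm3a, chr6:71632928-71632956, minus strand: ccgggaggctgtGCGTGtcttgtgagaga
Kdm4c, chr4:74251782-74251810, plus strand: agtttagagaccCACGTGacccagagagc
Egln3, chr12:54204087-54204115, minus strand: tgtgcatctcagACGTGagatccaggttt
In Kdm4c the palindrome CACGTG holds the core on both strands, and this window had 6 matches in all over both strands, while the window of Kdm3a shown here had 1 and the 2 other RefSeq starts of Kdm3a and the other start of Kdm4c had 0. One of these cores occurred in 38.8% of 32526 promoter windows of this length. By gene, 24 of the 42 tested members with a promoter entry held one, or 57.1%, beside 62.1% of 9612 tested genes with an entry. The stretches shown for Kdm3a and Kdm4c lie inside the annotated genes, which begin at 71632990 (minus strand) and 74242497 (plus strand). The matches are a description of the letters only.

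Promoters of the members were rich in CpG dinucleotides. In 35 of the 42, or 83.3%, at least 1 start had an observed-to-expected CpG ratio over 0.6, beside 72.6% of the tested genes with an entry. The remaining JmjC genes lay between −0.11 (Kdm8) and 0.12 (Kdm5a) in log2 fold change. Kdm6b, a gene induced by inflammatory signals, was at 2.16, 3.28 and 3.75 CPM in control and 3.93, 3.56 and 2.01 CPM in Piezo1_KO, and the 95% interval of its log2 fold change was wide, from −0.74 to 0.84. The flavin-dependent Kdm1a and Kdm1b had log2 fold changes of −0.04 ± 0.09 and −0.05 ± 0.20.

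The TET dioxygenases shared no direction. Tet2 was at 39.0, 48.1 and 33.3 CPM in control and 59.3, 37.2 and 52.3 CPM in Piezo1_KO, and its log2 fold change was 0.30 ± 0.19 (edgeR adjusted p = 0.572). Piezo1_KO replicates 1 and 3 were higher than all controls and replicate 2 lay among them. Without Piezo1_KO replicate 1 the value of Tet2 was 0.15, without control replicate 3 it was 0.18, and without Piezo1_KO replicate 2 it was 0.47. Tet3 had −0.07 ± 0.12. Tet1 was at 2.61, 1.37 and 0.749 CPM in control and 2.15, 1.45 and 2.18 CPM in Piezo1_KO, too low to bound its change within 2-fold.

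All 3 DNA methyltransferase genes had negative values in every fit, and none passed. Dnmt1 was at 584, 611 and 422 CPM in control and 531, 448 and 481 CPM in Piezo1_KO, so the control libraries spanned the whole range. Its log2 fold change was −0.15 ± 0.15, and it was −0.30 without control replicate 3 and −0.07, −0.09 and −0.09 without control replicate 2, control replicate 1 and Piezo1_KO replicate 2, and −0.22 without Piezo1_KO replicate 1. Dnmt3a was at 61.5, 62.9 and 54.3 CPM in control and 56.2, 44.7 and 50.2 CPM in Piezo1_KO, which gave a log2 difference of −0.24 ± 0.12 (edgeR adjusted p = 0.422, and 0.185 to 0.891 over 13 other fits). Dnmt3b had −0.19 ± 0.14 with overlap of the groups.

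The sirtuins held some of the most variable members. Sirt3, the main mitochondrial deacetylase, was at 11.5, 13.4 and 9.36 CPM in control and 15.2, 15.4 and 13.9 CPM in Piezo1_KO, while Sirt5, a mitochondrial desuccinylase, was at 7.59, 6.30 and 11.5 CPM in control and 5.66, 6.04 and 5.29 CPM in Piezo1_KO. Neither pair of groups overlapped, and control replicate 3 was the most distant library in both. The log2 fold changes were 0.37 ± 0.16 and −0.57 ± 0.25 (adjusted p = 0.384 and 0.381, edgeR, 0 of 13 other fits passing for either), and 0.25 and −0.29 without control replicate 3. Exons of Sirt3 overlap those of Psmd13 by 342 bases and of Ric8a by 418 bases on the opposite strand, and since it is not known whether reads were counted by strand, its count may take in reads of these genes. The same holds for Kdm1b, Kdm2b, Kdm5a, Kmt2e, Hdac7, Sirt2 and Kat5, each of which shares exon bases with 1 gene on the other strand, and Sirt7 shares 124 bases with Mafg on its own strand.

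Sirt1, the best-known nuclear NAD-dependent deacetylase, is given in full because its values stood out. It was at 8.75, 9.46 and 7.79 CPM in control and 5.32, 6.42 and 19.4 CPM in Piezo1_KO. Replicates 1 and 2 of Piezo1_KO were below all controls, and replicate 3 was more than 2-fold above every other library. Of 14149 genes tested, 16 were more than 2-fold above all other libraries in this replicate, and Sirt1 was the sole member among them. The log2 fold change of 0.25 ± 0.45 became −0.56 without Piezo1_KO replicate 3. Sirt2, Sirt4, Sirt6 and Sirt7 had log2 fold changes between −0.16 and 0.26.

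**Figure D3:**
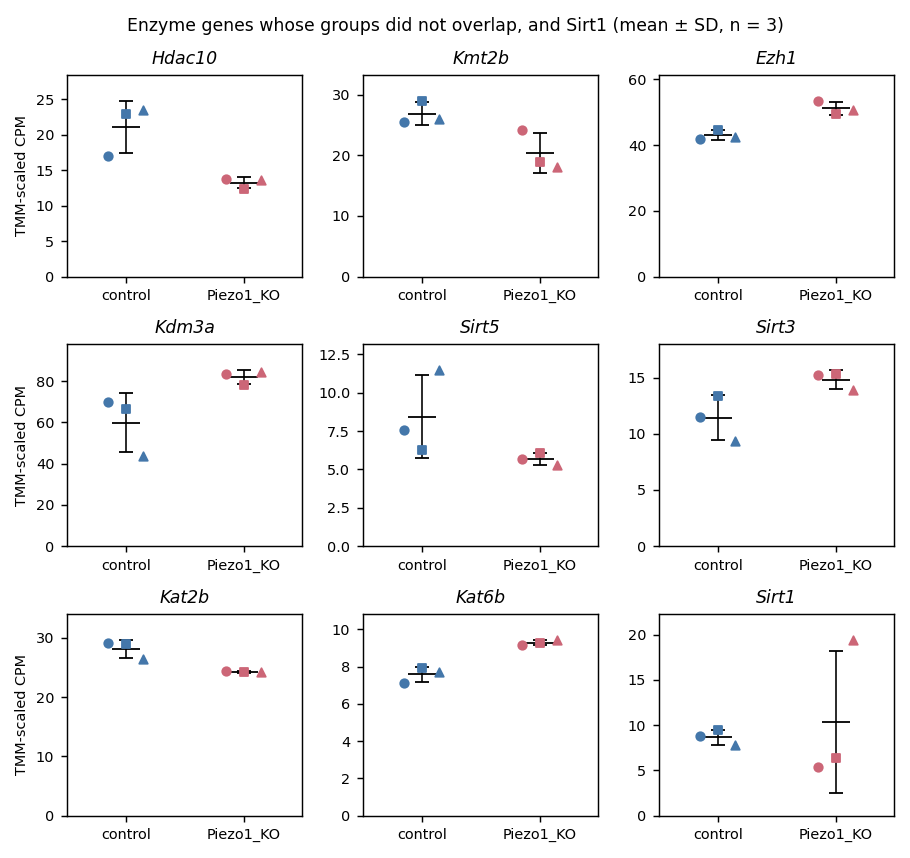
TMM-scaled CPM (vertical axes from 0) of the 8 enzyme genes whose groups did not overlap and of Sirt1, with 1 point per library (blue control, red Piezo1_KO, symbol shape by replicate) and the mean ± SD (n = 3) as a bar. Hdac10 was at 16.9 to 23.5 CPM in control and 12.4 to 13.8 CPM in Piezo1_KO, and Sirt1 reached 19.4 CPM in a single Piezo1_KO library.

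Among the acetyltransferases 6 of 8 values were negative and none passed. Kat2b (PCAF), a partner of the p300 and CBP coactivators, was at 29.1, 28.9 and 26.4 CPM in control and 24.5, 24.2 and 24.2 CPM in Piezo1_KO, and its relative Kat2a at 58.2, 59.3 and 55.7 CPM and 57.0, 50.9 and 52.1 CPM. Only Kat2b separated the groups. The log2 fold changes were −0.21 ± 0.10 and −0.12 ± 0.09 (adjusted p = 0.419 and 0.655, edgeR). Kat6b, which acetylates lysine 23 of histone H3, was at 7.14, 7.91 and 7.71 CPM in control and 9.17, 9.25 and 9.43 CPM in Piezo1_KO, without overlap (log2 fold change 0.29 ± 0.15, edgeR adjusted p = 0.480). Its paralog Kat6a had −0.09 ± 0.16, and Kat5, Kat7, Kat8 and Kat14 lay between −0.07 and 0.05.

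By the usual action of their class, genes for enzymes that add methyl or acetyl groups had 15 of 21 negative values (median −0.07). Genes for enzymes that remove or oxidise them had 20 of 32 positive values (median 0.04). Whole classes were counted, so the first group also holds Kmt2e, thought to be a reader, and the second holds the desuccinylase gene Sirt5. The second count did not hold without control replicate 3, when 11 of 32 were positive (median −0.03), while the first was then 17 of 21 (median −0.14). The count over the 53 tested members also fell in that fit, from 26 to 15 positive (median −0.05), though some single members rose. Over all genes tested, 7498 of 14149 were positive.

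Control replicate 3 stood apart for these genes. It held the lowest value of 23 of the 53 tested members, and control replicate 2, the deepest library, the highest value of 21. Over all genes tested, the same libraries held the lowest value for 27.8% and the highest for 26.7%, beside 43.4% and 39.6% of members. The median deviation from the other 5 libraries was −0.12 in control replicate 3 and 0.14 in control replicate 2 on the log2 scale. The median coefficient of variation of the members was 11.7% in control and 7.55% in Piezo1_KO (16.2% and 9.88% over all genes tested).

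**Figure D4:**
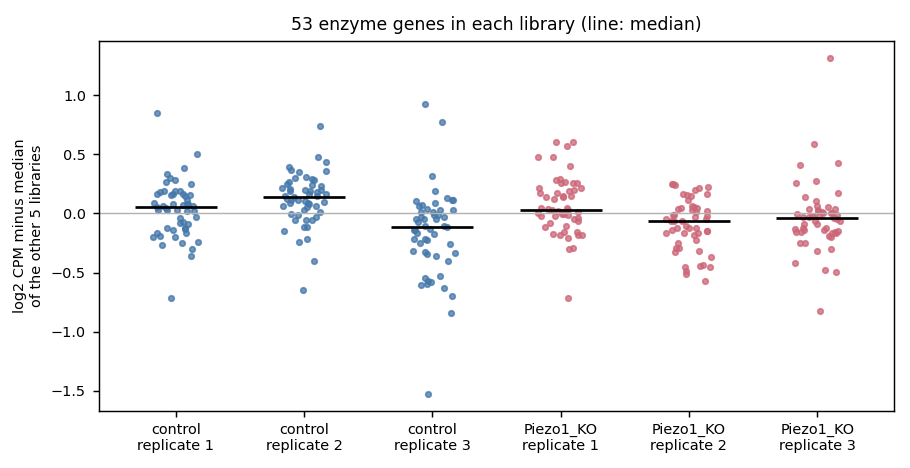
Deviation of each of the 53 tested enzyme genes in each library from its median in the other 5 libraries (vertical axis, log2 CPM), with the median of the 53 genes as a line. The line lies at −0.12 in control replicate 3 and at 0.14 in control replicate 2, and the highest point, in Piezo1_KO replicate 3, is Sirt1.

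Genes for the partners of these enzymes did not pass either. None of the 9 PRC2 partners, 19 PRC1 subunits, 13 COMPASS partners of the KMT2 enzymes, 26 HDAC corepressor subunits, 29 other acetyltransferases and their partners, or 13 bromodomain readers tested passed (medians of log2 fold change 0.03, −0.08, −0.05, −0.10, −0.06 and −0.06). The smallest p in each belonged to Jarid2, a PRC2 recruiter (0.37 ± 0.12), Ring1, a PRC1 ubiquitin ligase (−0.54 ± 0.16), Cxxc1, which binds CpG islands (−0.26 ± 0.10), Mbd3 of NuRD (−0.34 ± 0.11), Brpf3, a scaffold of Kat7 (−0.43 ± 0.20), and Brd3 (−0.47 ± 0.14), with adjusted p from 0.178 to 0.420 in edgeR. Likewise 0 of 18 other lysine methyltransferases, 10 other JmjC proteins, 9 arginine methyltransferases, 14 DNA methylation partners and 19 enzymes of cofactor metabolism passed, with medians between −0.08 and 0.01. There the smallest p belonged to Ehmt2 (G9a, −0.27 ± 0.11), Jmjd6 (0.27 ± 0.09), Prmt7 (−0.33 ± 0.12), Gadd45g (0.54 ± 0.16) and Nampt, the rate-limiting enzyme of NAD salvage (−0.36 ± 0.12), at adjusted p from 0.195 to 0.324 in edgeR. For Gadd45g, 1 of 13 other fits passed. Across these 11 lists, which hold 179 tested genes, 23 genes had an unadjusted p under 0.05, or 12.8% beside 13.2% of all genes tested. The lists were uneven. Such a p was found for 7 of 19 enzymes of cofactor metabolism (2 higher, 5 lower) and 5 of 19 PRC1 subunits (all lower). It was found for 0 of 29 other acetyltransferases and their partners. Summed levels did not overlap in 1 list, the arginine methyltransferases (697 to 772 CPM in control, 652 to 695 CPM in Piezo1_KO).

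Several members are expressed mainly in dividing cells, among them Dnmt1, Ezh2 and Kmt5a. Of 21 proliferation genes 0 passed, 15 were negative and the median log2 fold change was −0.12. At an unadjusted p under 0.05 there were 4 lower and 0 higher (edgeR), where 13.2% of all genes tested had such a p. The summed level was 8452 to 9078 CPM in control and 8283 to 8406 CPM in Piezo1_KO, without overlap. E2f1, a transcription factor of S phase entry and the gene of this list nearest to the threshold, stood at −0.56 ± 0.15 (adjusted p = 0.141 in edgeR, with 2 of 13 other fits passing and a range of 0.0237 to 0.505). The part of proliferation in the values of the enzymes was not tested.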

How the data were processed

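RNA of sorted lung ILC2s was sequenced in 3 control and 3 Piezo1_KO libraries, from 10 ng of input RNA each. The authors deposited 1 table of estimated counts per gene and library. The build is mm10, per the submitters' processing notes, while no label or header names the aligner, the counting tool, the strand setting or the annotation. Between 37.9% and 47.4% of the values per library were not whole and were rounded.

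Genes were filtered with filterByExpr, scaled by TMM and tested with edgeR 4.0.16 (quasi-likelihood F test, two-sided, R 4.3.3), p-values being adjusted by Benjamini-Hochberg across the 14149 tested genes and called under 0.05. Fold changes carry the model's SE, and 95% intervals use its degrees of freedom. Alternatives were RLE scaling, no filter, a filter of 1 CPM, protein-coding genes only, a replicate block, DESeq2 1.42.0, limma 3.58.1 (voom with sample weights) and leaving out each library. Lengths and positions came from GENCODE M21 (GRCm38, the sequence of mm10) and promoters from RefSeq, with entries for 42 of the 53 tested members. On simulated data of 13860 genes for this comparison, 50 genes were changed at each fold size, and the recovered share was 14% at 1.5-fold, 60% at 2-fold, 84% at 3-fold and 90% at 4-fold, with 8 false calls among 132.

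Replicates of a group differed beyond sampling noise (chi-square per gene 9.97 to 55.4), so none was counted as a duplicate. The members and lists were chosen with earlier results of these data known. Named in full are the 15 members with the smallest p, the highest and lowest of each class and, per list, up to 3 called genes or the gene with the smallest p. Sirt1 was added after its values were seen, as were the other members described with their values.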

Additional observations from a re-analysis of the deposited data

How the results depend on the processing

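The count of genes past the threshold, 214 in edgeR, was 582 in DESeq2, 439 in limma-voom, 392 with protein-coding genes only and 52 with the replicate block, and leaving out single libraries gave 33 to 297. It was 35, 33 and 53 without Piezo1_KO replicates 1, 2 and 3 and 34 without control replicate 1. Members past the threshold were 0 in edgeR, 1 (Hdac10) in DESeq2 and with protein-coding genes only, and 0 in the other 11 alternatives. No pairing by replicate number was seen: the deviations of same-numbered libraries correlated at −0.02, −0.18 and −0.01, and no library correlated best with its own number. With 3 libraries per group, these correlations cannot exclude a pairing that the labels do not state. The block changed the call of 0 members.

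Leaving out single libraries put the log2 fold changes of 23 of the 53 tested members on both sides of 0, and the cause was not tested. In limma-voom, among the members named by rule, Kmt5a was 0.026, Hdac8 −0.048, Sirt7 0.032 and Tet1 −0.084. Further members turned there, since 22 of 53 were positive in place of 26, and 8 of 11 JmjC genes in place of 10. In DESeq2 Hdac8 was −0.0054, and with the replicate block Sirt1 was −0.0039. Among the members named by rule, and Sirt1, these ranges were given by Kdm1a (−0.10 to 0.0057), Kdm1b (−0.24 to 0.060), Kmt5a (−0.27 to 0.051), Hdac1 (−0.040 to 0.071), Hdac8 (−0.11 to 0.055), Kat7 (−0.13 to 0.019), Kat14 (−0.15 to 0.0012), Tet1 (−0.037 to 0.82) and Sirt1 (−0.56 to 0.56). The other 14 were Hdac3, Hdac5, Kat6a, Kat8, Kdm2a, Kdm3b, Kdm4a, Kdm4c, Kdm6b, Kdm7a, Kdm8, Kmt2a, Kmt5b and Sirt2. The median of the sirtuins was −0.07 without Piezo1_KO replicate 3, and that of the TET genes −0.08 in limma-voom. With the longest transcript as length, an alternative chosen after seeing the data, the highest gene was the same in 11 of 12 classes and the lowest in 11. The depth of control replicate 3, 13059046 counts, limits the low members most: Tet1 had 10 counts there.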
